A study of Arabidopsis thaliana with 6 samples.

Results

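The outermost cell layer of a plant embryo is the protoderm, the precursor of the epidermis. In Arabidopsis thaliana it is specified by transcription factors of class IV of the homeodomain leucine zipper family (HD-ZIP IV), above all ATML1 and PDF2, which act redundantly and are known to bind a short promoter element, the L1 box, of genes expressed in the outer layer. PDF1, a proline-rich cell wall protein gene, is a standard marker of that layer, and the receptor kinase ACR4 and the membrane-anchored calpain DEK1 act in signalling that maintains it. The 10 genes described here were chosen by locus identifier: 7 HD-ZIP IV genes (ATML1, PDF2, HDG11, HDG12, HDG2, ANL2 and GL2), PDF1, ACR4 and DEK1, of 23874 genes with reads in the series. All 10 had reads in every library.

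The libraries held poly(A) RNA of washed, hand-dissected hybrid embryos from crosses, in both directions, of Col-0 with Cvi-0, a pair of inbred accessions, made after emasculation. The 6 groups were Cvi-0 x Col-0 and Col-0 x Cvi-0 embryos at the 1-cell/2-cell stage (about 40 h after pollination), the 8-cell stage (64 h) and the about 32-cell stage (78 h), with the mother taken as the parent named first. Each group was 1 library from a pool of 20 embryos, so no group had a replicate, and no mutant or transgene was present. Gene reads per library numbered 10299142 to 14805499, and gene levels are given in RPM, the authors' scaling of reads to the mapped reads of the library. Between 1233554 and 1723728 reads per library overlapped a known variant and could be traced to an allele, and so to mother or father.

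Genes known from the embryo (LEC1, WOX2, WOX8, WOX9 and MP) had reads in all 6 libraries and summed to 424 to 558 RPM. Of 7 seed coat genes, 6 had reads in every library and TT16 was at 0 in 1; they summed to 33.6 and 38.3 RPM in 1-cell/2-cell embryos, 63.5 and 42.6 RPM in 8-cell embryos and 102 and 33.9 RPM in 32-cell embryos (Cvi-0 x Col-0 given before Col-0 x Cvi-0 here and throughout). Reads of TT4, TT18 and BAN, genes of flavonoid synthesis in the seed coat, were nearly all maternal (426 maternal and 3 paternal, 147 and 0, and 177 and 1; adjusted p = 0.00036, 0.0109 and 0.00356 in edgeR's quasi-likelihood test; without 32-cell Cvi-0 x Col-0, 0.111 for TT18 and 0.065 for BAN). Seed coat genes tested for parent over all stages numbered 5, of which 3 passed, where 0.129% of 6988 genes were called. The log2 ratio of maternal to paternal reads was above 0 for 4 of these 5. Of 6 endosperm genes, MEA was at 0 in 5 libraries and PHE1 in 4, and the sum was 44.0 and 49.6 RPM, then 19.3 and 21.8 RPM, then 11.3 and 3.32 RPM over the same stages. The part of these tissues in the values of the protoderm genes was not tested. In pooled embryos, a change in the share of cells that express a gene and a change of its RNA per cell cannot be told apart.

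The L1 box was searched for as TAAATGCA or TAAATGTA on both strands in the 1000 bases before each gene's first annotated start codon (RefSeq, TAIR10.1). At least 1 copy was found for 4 of the 10 genes, ATML1, PDF1, DEK1 and ANL2, and for 4003 of 27443 protein-coding genes (14.6%). In the 250 bases before the annotated gene start, 4.49% of protein-coding genes had a copy, against 2 of the 10, HDG2 and ANL2. The copy nearest the start codon is shown for each of the 4 because the element is the known target of the HD-ZIP IV proteins; capitals mark the motif, with 11 bases on each side, on the gene's strand, where a copy on the opposite strand reads TGCATTTA:
PDF1, 192 bases before the start codon, in the 5′ UTR (chr2:17827600-17827629, minus strand): atgggatagtgTAAATGCAcctgcaacaca
ATML1, 408 bases before the start codon, in a 5′ UTR exon (chr4:11556546-11556575, plus strand): cacgtagtgggTGCATTTAtattcataccc
DEK1, 926 bases before the start codon and 317 before the gene start (chr1:20665409-20665438, minus strand): gttttgttttgTGCATTTAacactttttgt
ANL2, 565 bases before the start codon and 56 before the gene start (chr4:304650-304679, minus strand): ttgtcaaaaaaTGCATTTAaccaaaaaaat
Of 5 genes of epidermal surface lipids 3 had a copy in the 1000-base window, BDG1, CER6 (684 bases before its gene start) and FDH, a fatty acid elongase-like gene, which had TAAATGCA 54 bases before its gene start (chr2:11173314-11173343, minus strand): aaaaattgtaaTAAATGCAaacataagatc
These matches describe letters only, and binding was not measured.

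PDF1 and PDF2 rose by the 8-cell stage, and HDG12 and ANL2 fell by the 32-cell stage, while ATML1 passed in no stage comparison in edgeR. For 8-cell against 1-cell/2-cell embryos, 2 of the 10 genes differed, both higher, where 1.1% of 17478 genes tested were called (0.864% higher). For 32-cell against 1-cell/2-cell embryos, 4 of the 10 differed, PDF1 and PDF2 higher and HDG12 and ANL2 lower, where 7.78% of all genes tested were called (4.18% higher and 3.6% lower). For 32-cell against 8-cell embryos, 0 of the 10 and 0% of all genes tested passed in edgeR; 2 of the 10 and 2064 of all genes were under an unadjusted p of 0.05, and DESeq2 called 1 of the 10 (PDF1) and 643 of all genes. The median log2 ratio over the 10 genes was -0.32 for 8-cell and -0.45 for 32-cell embryos, each against the 1-cell/2-cell stage, beside medians of 0.01 and 0.0011 over all genes tested. The tests used the reciprocal crosses as repeats of a stage, and p-values are adjusted by Benjamini-Hochberg over all genes tested.

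**Figure D1:**
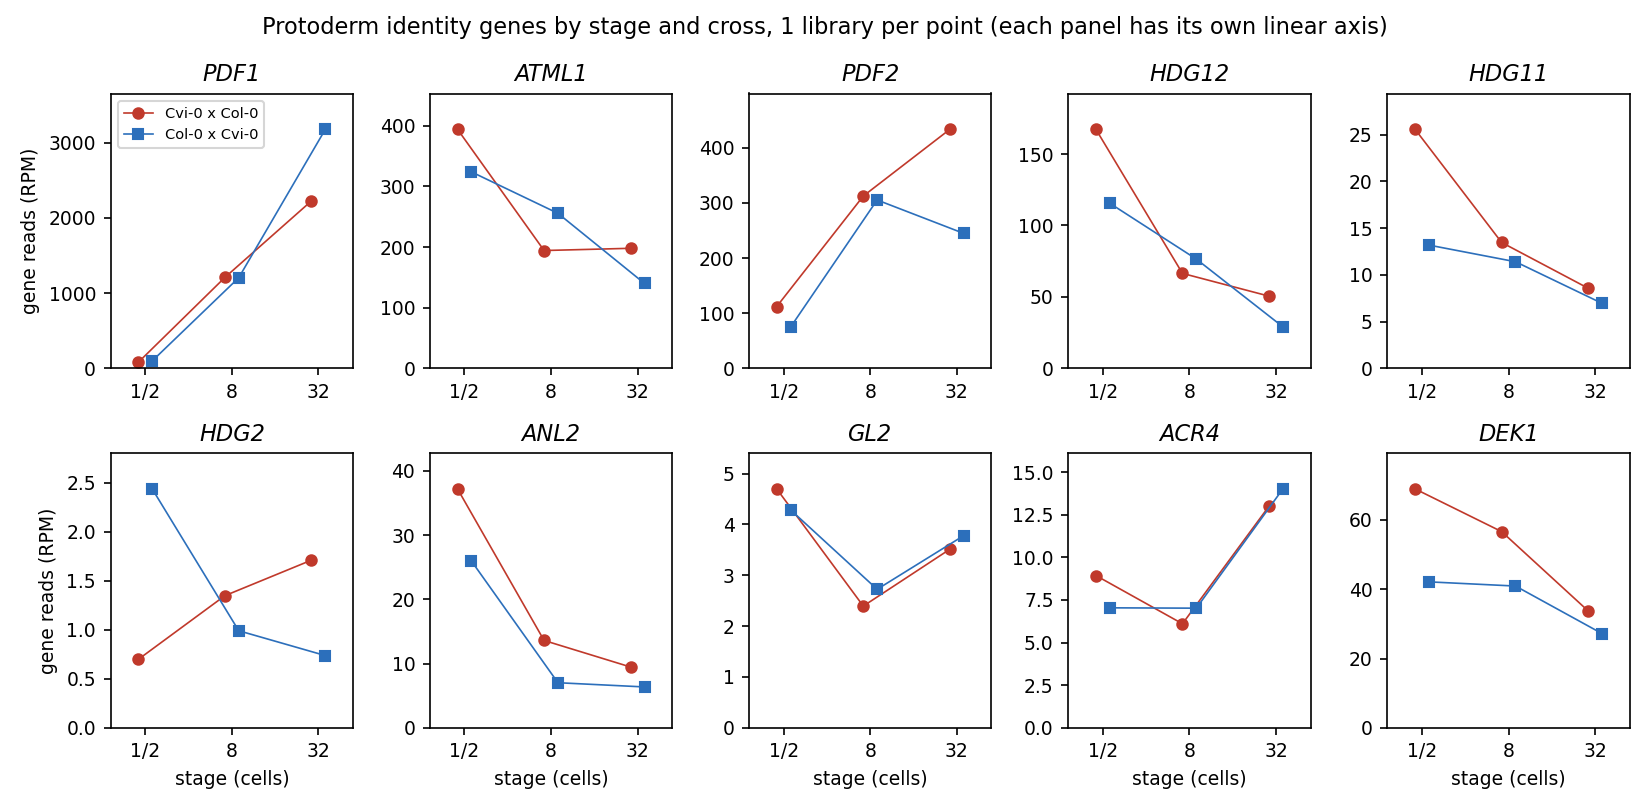
Gene reads (RPM, linear axis from 0, own scale per panel) of the 10 genes against stage, 1 point per library, red circles for Cvi-0 x Col-0 and blue squares for Col-0 x Cvi-0 embryos. PDF1 stands at 2227 and 3179 RPM in 32-cell embryos, against 79.8 and 97.5 RPM in 1-cell/2-cell embryos, while ANL2 and HDG12 are highest at the 1-cell/2-cell stage in both crosses.

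PDF1 (AT2G42840, chromosome 2, 17826071 to 17827648, minus strand) had 79.8 and 97.5 RPM in 1-cell/2-cell embryos, 1208 and 1205 RPM in 8-cell embryos and 2227 and 3179 RPM in 32-cell embryos. The stages did not overlap, and both crosses moved the same way at each step. The log2 ratio was 3.94 ± 0.30 (SE) for 8-cell against 1-cell/2-cell embryos (15.3-fold; adjusted p = 0.00542 in edgeR) and 5.06 ± 0.32 for 32-cell against 1-cell/2-cell embryos (33.4-fold; adjusted p = 0.00133). For 32-cell against 8-cell embryos it was 1.13 ± 0.27 (adjusted p = 0.211 in edgeR). That comparison passed in DESeq2 (adjusted p = 0.00203) and in edgeR without either 1-cell/2-cell library (adjusted p = 0.0155 and 0.0124). PDF1 held 51722 gene reads in the 32-cell Col-0 x Cvi-0 library.

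PDF2 (AT4G04890, chromosome 4, 2476390 to 2482447, minus strand), the partner of ATML1 in specifying the protoderm, had 112 and 74.7 RPM, then 312.5 and 305.4 RPM, then 433.6 and 244.8 RPM at the 3 stages. Both 8-cell and both 32-cell libraries lay above both 1-cell/2-cell libraries, and the 32-cell libraries lay on either side of the 8-cell ones. The log2 ratio was 1.93 ± 0.32 for 8-cell (adjusted p = 0.0368 in edgeR) and 1.97 ± 0.32 for 32-cell embryos (adjusted p = 0.0134), each against the 1-cell/2-cell stage. Without either of the 8-cell libraries, the 8-cell call was lost (adjusted p = 0.0629 without Cvi-0 x Col-0 and 0.25 without Col-0 x Cvi-0).

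ATML1 (AT4G21750, chromosome 4, 11555039 to 11560771, plus strand) had lower values at the later stages, without passing in edgeR. It had 394 and 324 RPM in 1-cell/2-cell embryos, 194 and 256 RPM in 8-cell embryos and 198 and 140.0 RPM in 32-cell embryos. The log2 ratio for 32-cell against 1-cell/2-cell embryos was -0.97 ± 0.32 (adjusted p = 0.109 in edgeR, 0.0295 in DESeq2), and all later libraries lay below both 1-cell/2-cell libraries.

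The balance of ATML1 and PDF2 was compared per kilobase of transcript, since their lengths differ (3972 and 3286 bases). The ratio of PDF2 to ATML1 was 0.343 and 0.279 in 1-cell/2-cell embryos, 1.94 and 1.44 in 8-cell embryos and 2.65 and 2.11 in 32-cell embryos, so ATML1 was the more abundant at the earliest stage and PDF2 afterwards, in both crosses. ATML1 made up 48.2% and 53.0% of the summed level of the 7 HD-ZIP IV genes in 1-cell/2-cell embryos, 28.1% and 34.3% in 8-cell embryos and 24.4% and 28.4% in 32-cell embryos. The share of PDF2 was 16.6% and 14.8%, then 54.7% and 49.5%, then 64.5% and 59.99%. The sum of ATML1 and PDF2 ranged from 104 to 182 RPM per kb over the 6 libraries. The 1-cell/2-cell and 8-cell ranges of that sum did not overlap, and the 32-cell range (110 to 182) overlapped both. The longest stretch of identical bases in transcripts of ATML1 and PDF2 was 28 bases, and neither gene overlaps another annotated gene.

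**Figure D2:**
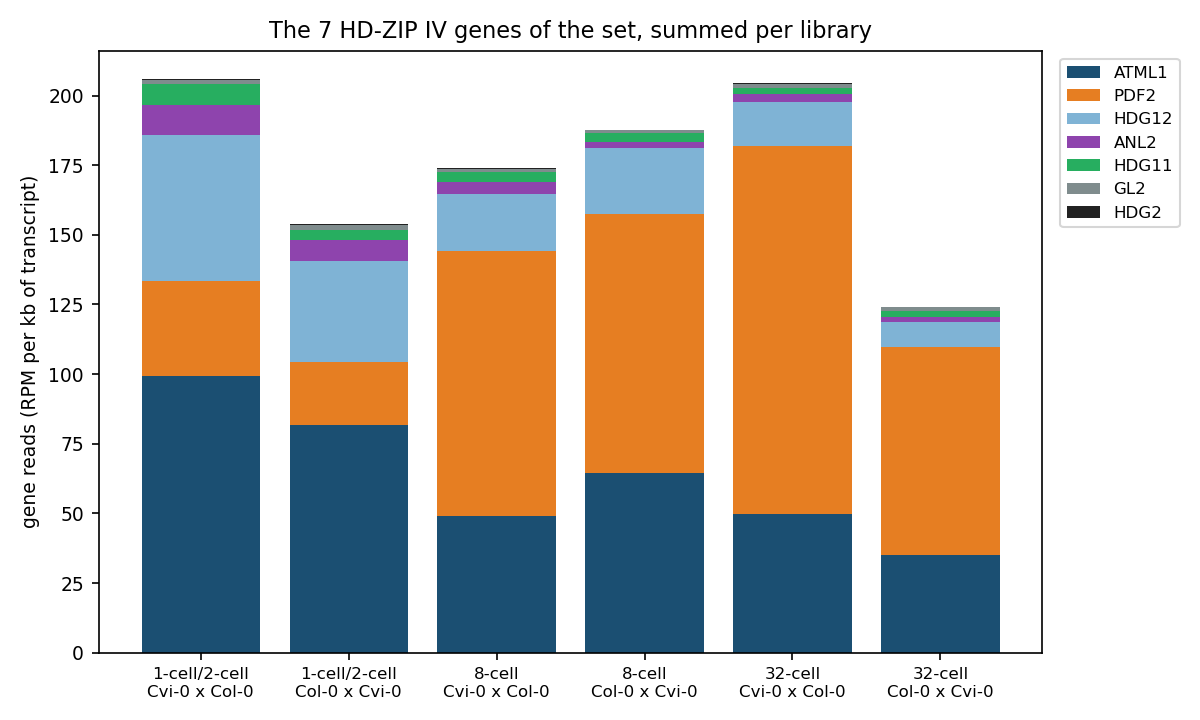
Summed level of the 7 HD-ZIP IV genes in each library (RPM per kb of the longest annotated transcript), stacked by gene, with stages from left to right and Cvi-0 x Col-0 left of Col-0 x Cvi-0. PDF2 takes 59.99% to 64.5% of the bar in 32-cell embryos, against 14.8% to 16.6% of it in 1-cell/2-cell embryos.

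HDG12 and HDG11, a closely related HD-ZIP IV pair with known roles in epidermal and trichome development, were both highest at the 1-cell/2-cell stage. HDG12 (AT1G17920, chromosome 1, 6161870 to 6165820, minus strand) had 167 and 116 RPM, then 66.4 and 76.5 RPM, then 50.5 and 29.0 RPM at the 3 stages. The stages did not overlap, and HDG12 fell in 32-cell against 1-cell/2-cell embryos by 1.72 ± 0.35 on the log2 scale (adjusted p = 0.0282 in edgeR). That call was lost when either of 2 libraries was left out, Cvi-0 x Col-0 at 1-cell/2-cell (adjusted p = 0.0512) or Col-0 x Cvi-0 at 32-cell (0.0776). HDG11 (AT1G73360, chromosome 1, 27578421 to 27582685, minus strand) had 25.6 and 13.2 RPM, then 13.5 and 11.4 RPM, then 8.56 and 6.95 RPM. Its 1-cell/2-cell and 8-cell values overlapped, and the log2 ratio of 32-cell to 1-cell/2-cell embryos was -1.15 ± 0.43 (adjusted p = 0.138).

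ANL2 (AT4G00730, chromosome 4, 299261 to 304612, minus strand), known for anthocyanin accumulation in the subepidermis and for root epidermal development, had 37.2 and 26.0 RPM in 1-cell/2-cell embryos, 13.6 and 7.02 RPM in 8-cell embryos and 9.46 and 6.36 RPM in 32-cell embryos. Both later stages lay below the earliest one and overlapped each other. ANL2 fell in 32-cell against 1-cell/2-cell embryos by 1.85 ± 0.36 on the log2 scale (adjusted p = 0.0241 in edgeR), while 8-cell against 1-cell/2-cell embryos gave -1.50 ± 0.35 (adjusted p = 0.128 in edgeR, 0.0231 in DESeq2). The 32-cell call was lost without any one of the 1-cell/2-cell or 32-cell libraries (adjusted p between 0.0513 and 0.0837). Over the same interval the endosperm gene SUC5, a sucrose transporter, fell by 3.02 ± 0.55 (adjusted p = 0.0211 in edgeR). SUC5 was the 1 of 3 tested endosperm genes that passed, where 3.6% of all genes tested were called lower. Another 1 of the 3 had a log2 ratio above 0. The part of endosperm in the values of ANL2 and HDG12 was not tested.

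GL2 and HDG2 were the least abundant of the HD-ZIP IV members. GL2 (AT1G79840, chromosome 1, 30036956 to 30041440, plus strand), a regulator of trichomes, root hairs and seed coat mucilage, had 4.70 and 4.29 RPM, then 2.39 and 2.73 RPM, then 3.51 and 3.78 RPM at the 3 stages. HDG2 (AT1G05230, chromosome 1, 1512896 to 1518900, minus strand), known from trichome and stomatal development, had 0.699 and 2.44 RPM, then 1.35 and 0.991 RPM, then 1.71 and 0.738 RPM, which is 9 to 31 reads per library. Neither passed the test in any stage comparison. HDG2 had the lowest level per kb of the 10 genes at every stage, with GL2 next, and the stage ranges of this pair did not overlap.

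ACR4 (AT3G59420, chromosome 3, 21959646 to 21963180, minus strand) had 8.93 and 7.04 RPM, then 6.10 and 7.02 RPM, then 13.0 and 14.0 RPM at the 3 stages. The 32-cell libraries lay above all earlier ones, but the log2 ratios of 1.02 ± 0.46 against the 8-cell stage (adjusted p = 0.438 in edgeR) and 0.88 ± 0.46 against the 1-cell/2-cell stage (adjusted p = 0.263) did not pass. DEK1 (AT1G55350, chromosome 1, 20653740 to 20665110, minus strand) had 68.9 and 42.1 RPM, then 56.6 and 40.9 RPM, then 33.7 and 27.2 RPM. Both 32-cell values of DEK1 lay below all earlier ones, and the log2 ratio of 32-cell to 1-cell/2-cell embryos was -0.70 ± 0.30 (adjusted p = 0.19). HDG12, HDG2, DEK1 and GL2 each overlap an annotated gene on the opposite strand, and the libraries kept the strand per the labels. The end of GL2 also overlaps AT1G09927, an annotated non-coding RNA on the same strand, and reads in that stretch cannot be told apart.

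Per kilobase of transcript, the order of the 10 genes differed between stages. At the 1-cell/2-cell stage the means were 90.4 RPM per kb for ATML1, 63.4 for PDF1, 44.3 for HDG12 and 28.4 for PDF2, with all other members at 9.29 or less, and the ranges of these neighbours did not overlap. At the 8-cell stage PDF1 stood at 863 RPM per kb, PDF2 at 94.0, ATML1 at 56.6 and HDG12 at 22.4, again without overlap. At the 32-cell stage the same order held, with 1932, 103, 42.5 and 12.4 RPM per kb. At that stage DEK1 and ACR4 overlapped in range, as did ANL2 and HDG11.

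Between the reciprocal crosses, 0.00572% of all genes tested were called, 0 of the 10 protoderm genes passed in edgeR or DESeq2, and 0 of the 10 were under an unadjusted p of 0.05 (992 of all 17478 genes were, and DESeq2 called 49). The log2 ratios of Cvi-0 x Col-0 to Col-0 x Cvi-0 ran from -0.44 ± 0.22 for PDF1 (adjusted p = 0.83) to 0.51 ± 0.28 for ANL2 (adjusted p = 0.83). PDF2, HDG11, ANL2 and DEK1 had higher values in Cvi-0 x Col-0 than in Col-0 x Cvi-0 embryos at all 3 stages. ATML1 and HDG12 did so at the earliest and the latest stage and had lower values at the 8-cell stage. The share of all genes with such patterns was not counted.

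Other genes of the epidermal pathway were compared as lists. Of 9 other HD-ZIP IV genes, HDG9 and HDG10 had no reads, 6 were tested and 0 passed in a stage comparison. HDG5 was the most abundant of them, with 62.8 and 56.7 RPM, then 43.3 and 38.0 RPM, then 44.0 and 40.0 RPM. Of 12 genes of epidermal signalling, 10 were tested. Against the 1-cell/2-cell stage, 1 was higher in 8-cell and 2 in 32-cell embryos, and 0 were lower. Over all genes tested, 0.864% and 4.18% were called higher in these comparisons. The log2 ratio was above 0 for 3 of the 10 in 8-cell and for 4 in 32-cell embryos. TWS1 encodes the precursor of a peptide signal in formation of the embryo cuticle. It had 0.155 and 0.236 RPM, then 20.8 and 7.43 RPM, then 45.7 and 53.2 RPM. Its reads were 74.7-fold more frequent at the 8-cell stage (95% counting interval 31.7 to 231) and 238-fold at the 32-cell stage (102 to 733) than in 1-cell/2-cell embryos, which had 5 reads, with adjusted p = 0.00844 and 0.00176 in edgeR. ALE1, a subtilisin protease known to process that precursor, had 116 reads in 32-cell embryos, against 2 in 1-cell/2-cell embryos. The ratio was 42.4 (interval 11.5 to 354, adjusted p = 0.043 in edgeR). Endosperm genes summed to 44.0 and 49.6 RPM in 1-cell/2-cell and to 11.3 and 3.32 RPM in 32-cell embryos. The part of endosperm in the reads of ALE1 was not tested. The call of ALE1 was lost without 1-cell/2-cell Col-0 x Cvi-0 (adjusted p = 0.15), 8-cell Col-0 x Cvi-0 (0.0593), 32-cell Cvi-0 x Col-0 (0.106) or 32-cell Col-0 x Cvi-0 (0.248), and with the authors' library totals (0.0529). The receptors of the peptide were present at each stage, GSO1 at 45.1 to 81.4 RPM and GSO2 at 31.6 to 85.8 RPM, and neither passed a stage comparison.

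Of 5 surface lipid genes, 1 passed, in 32-cell against 1-cell/2-cell embryos, where 4.18% of all genes tested were called higher. In that comparison 4 of the 5 had a log2 ratio above 0. CER6, a condensing enzyme of very-long-chain fatty acid synthesis, had 1.63 and 1.53 RPM, then 3.88 and 3.39 RPM, then 28.4 and 39.6 RPM, and rose in 32-cell against 1-cell/2-cell embryos by 4.53 ± 0.46 on the log2 scale (adjusted p = 0.00322 in edgeR). FDH, whose L1 box is printed above, had 82.4 and 58.5 RPM, then 89.7 and 130 RPM, then 150 and 173 RPM (log2 1.31 ± 0.36, adjusted p = 0.0707 in edgeR, 0.00515 in DESeq2). LTP1, a lipid transfer protein gene, had 23.0 and 6.69 RPM, then 13.6 and 26.8 RPM, then 4.35 and 5.22 RPM (log2 -1.49 ± 0.71 for 32-cell against 1-cell/2-cell embryos, adjusted p = 0.227). The median log2 ratio of the 5 for 32-cell against 1-cell/2-cell embryos was 1.12, and -0.42 over the 10 tested signalling genes. Genes of later epidermal cell types were low or did not pass. The bHLH gene SCRM2 of the stomatal lineage had 0.311 and 0.787 RPM, then 2.83 and 0.0826 RPM, then 11.6 and 15.3 RPM (adjusted p = 0.062 in edgeR and 0.000546 in DESeq2 for 32-cell against 1-cell/2-cell embryos), and MUTE and FAMA had no reads. Of 9 trichome and root hair regulators 3 were tested and 0 passed, and the WD40 protein gene TTG1 was the most abundant (22.4 to 29.1 RPM). Of the embryo genes, MP, an auxin response factor, rose by 2.26 ± 0.29 on the log2 scale in 32-cell against 1-cell/2-cell embryos (adjusted p = 0.00685 in edgeR). MP was the 1 of 5 embryo genes that passed, where 4.18% of all genes tested were called higher. The log2 ratio was above 0 for 2 of the 5, and their median was -0.99.

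**Figure D3:**
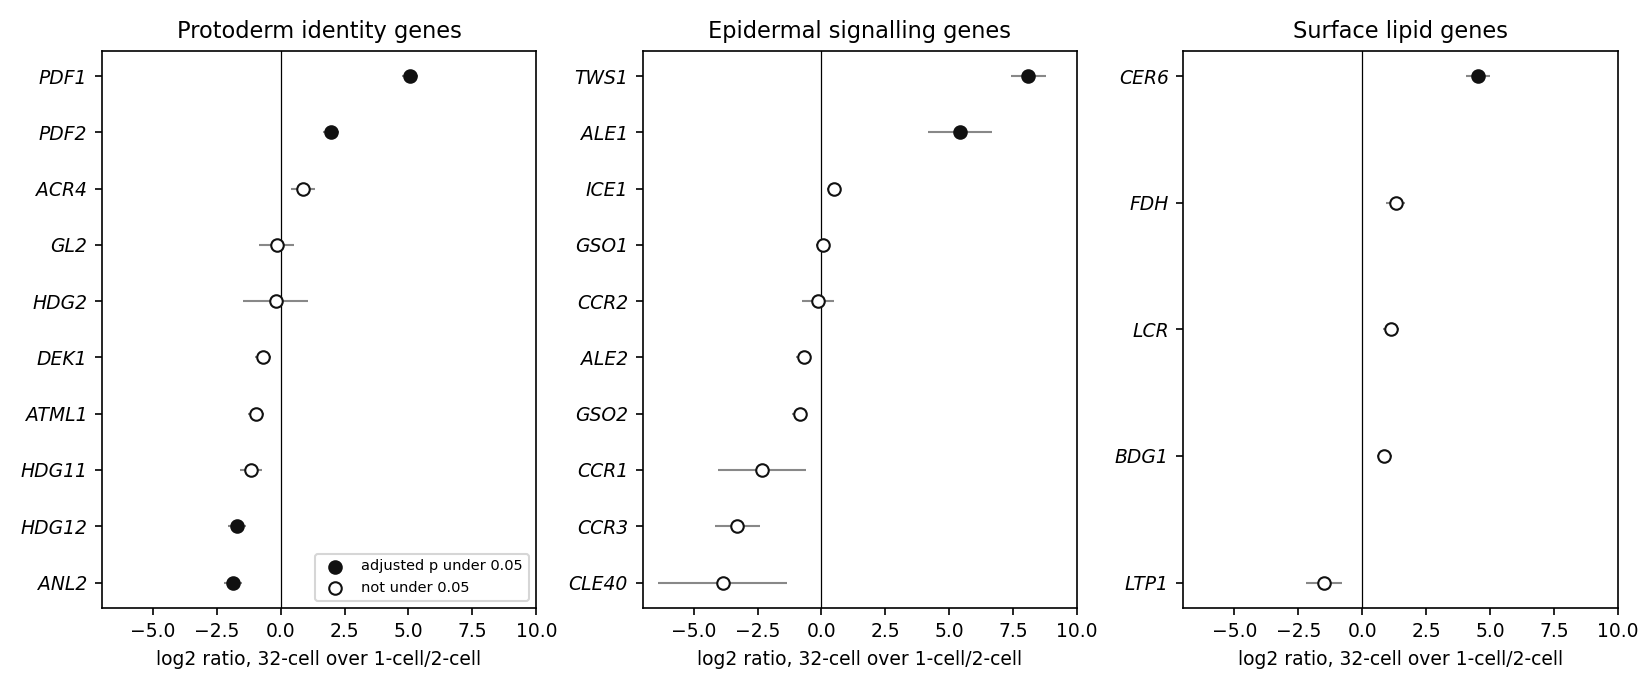
Log2 ratio of gene reads in 32-cell over 1-cell/2-cell embryos for the 10 protoderm identity genes, the 10 tested epidermal signalling genes and the 5 surface lipid genes; points are edgeR estimates, bars are 1 SE, and filled points have an adjusted p under 0.05. PDF1 (5.06) and PDF2 (1.97) lie to the right and HDG12 (-1.72) and ANL2 (-1.85) to the left of 0 among the members, and TWS1 (8.09), ALE1 (5.43) and CER6 (4.53) to the right among the others.

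The genes whose pattern over the 6 libraries was most like that of PDF1, by Pearson's r of log2(RPM + 1) among 12217 genes with a mean of at least 5 RPM, were AT4G31760 (r = 0.999), ROXY1 (0.998), GRF3 (0.997), LRP1 (0.996) and CEL2 (0.995). AT4G31760 averaged 27.4 RPM in 1-cell/2-cell, 119 RPM in 8-cell and 196 RPM in 32-cell embryos. The genes most like ATML1 were AT3G08600 (0.998), TRFL5 (0.996), AT1G71080 (0.995), emb2734 (0.994) and NHL2 (0.992). These values share the libraries and their depth and describe likeness over 6 points.

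Parental origin could be tested for 5 of the 10 genes, ATML1, PDF1, HDG11, DEK1 and GL2, which averaged at least 10 allele reads per library. HDG12 had 0 allele reads and HDG2 had 1 in all, PDF2 had 21, ANL2 48 and ACR4 51. Over all stages, 0 of the 5 differed between maternal and paternal alleles in edgeR or DESeq2, where 0.129% of 6988 genes were called in edgeR. An unadjusted p under 0.05 in edgeR was found for 2 of the 5 and for 301 of all 6988 genes. These 2 went in opposite directions, PDF1 with a log2 ratio of maternal to paternal reads of -0.49 and ATML1 with 0.27. At the 1-cell/2-cell stage 1 of the 5, PDF1, differed, with fewer maternal reads, where 0.143% of genes were called (0.0859% with more and 0.0572% with fewer maternal reads). In 8-cell embryos (0.1% of genes called) and in 32-cell embryos (0.0429%) 0 of the 5 differed in edgeR or DESeq2, and 0 had an unadjusted p under 0.05.

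PDF1 had 86 maternal and 166 paternal reads in Cvi-0 x Col-0 embryos and 78 maternal and 249 paternal reads in Col-0 x Cvi-0 embryos at the 1-cell/2-cell stage. The maternal shares were 34.1% (exact Clopper-Pearson 95% interval 28.3 to 40.3, counting error only, as for all intervals here) and 23.9% (19.3 to 28.9). At the 8-cell stage they were 42.6% (41.2 to 44.0) from 2043 maternal and 2750 paternal reads and 43.7% (42.2 to 45.2) from 1807 and 2331. Paternal reads were thus in the majority in both crosses at both stages. At the 32-cell stage the crosses lay on either side of 50%, with 42.3% (41.3 to 43.2) from 4495 maternal and 6138 paternal reads and 59.7% (58.8 to 60.6) from 6549 and 4423, so that the Col-0 allele was ahead in both.

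The log2 ratio of maternal to paternal reads of PDF1 was -1.31 ± 0.23 at the 1-cell/2-cell stage (adjusted p = 0.0447 in edgeR), -0.40 ± 0.21 in 8-cell embryos and 0.06 ± 0.21 in 32-cell embryos (adjusted p = 1 for both). The 1-cell/2-cell call was lost without the Col-0 x Cvi-0 library of that stage (-0.68, adjusted p = 0.493) and without either 8-cell library (adjusted p = 0.193 and 0.0813). The 7 variants of PDF1 were led by a pair that held nearly all reads. At the 1-cell/2-cell stage the maternal share was 29.6% (25.4 to 34.0) at the most-read variant and 24.0% (16.8 to 32.5) at the next, and at each of them paternal reads were in the majority in both crosses. With the most-read variant left out, a choice made after seeing the data, the log2 ratio was -1.67 and no longer passed (adjusted p = 0.326). The change of the maternal share of PDF1 between stages had an unadjusted p of 0.0019 and an adjusted p of 0.998, where 0% of genes were called. It passed when the minimum was lowered to a mean of 3 allele reads (adjusted p = 1.98e-05 in edgeR). With a library left out, 1 cross remained at its stage, where parent and genotype cannot be told apart. Those fits cannot decide this change.

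HDG11 had few allele reads. At the 1-cell/2-cell stage 28 were maternal and 3 paternal, a maternal share of 90.3% (74.2 to 98.0). They came from 18 and 0 in Cvi-0 x Col-0 and 10 and 3 in Col-0 x Cvi-0 embryos. Of these reads, 25 maternal and 3 paternal were at 1 variant, which left 3 reads at the others. The log2 ratio of 3.34 ± 1.40 did not pass (adjusted p = 0.796 in edgeR), and the shares at the 8-cell and 32-cell stages were 52.2% (30.6 to 73.2) and 58.8% (32.9 to 81.6). Seed coat genes summed to 33.6 and 38.3 RPM in the 1-cell/2-cell libraries, and their part in this share was not tested. DEK1 and GL2 had maternal shares over all stages of 55.3% (43.4 to 66.7, 76 reads) and 47.8% (35.6 to 60.2, 69 reads). ACR4, under the minimum for the test, had 52.9% (38.5 to 67.1).

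**Figure D4:**
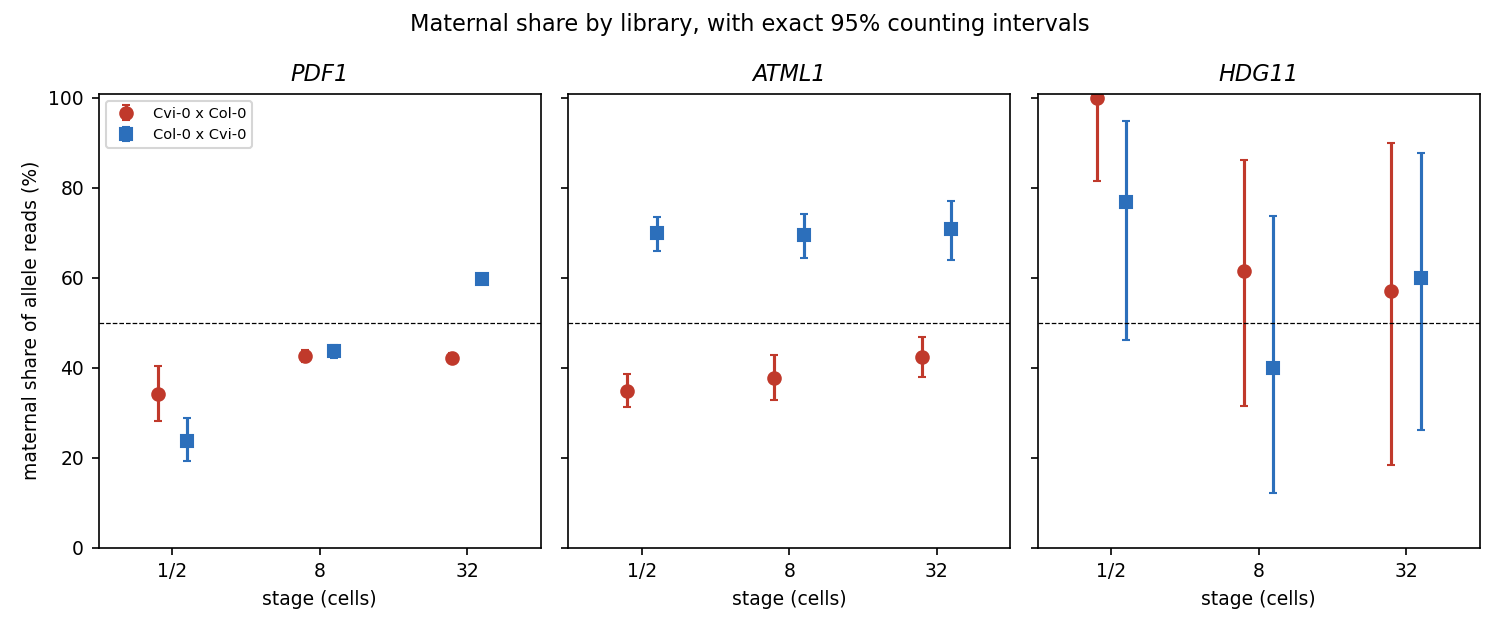
Maternal share of allele reads (%) of PDF1, ATML1 and HDG11 against stage, 1 point per library, red circles for Cvi-0 x Col-0 and blue squares for Col-0 x Cvi-0; bars are exact 95% counting intervals and the dashed line is 50%. PDF1 lies under the line in both crosses at the 1-cell/2-cell and 8-cell stages, and ATML1 lies above it with a Col-0 mother and under it with a Cvi-0 mother at every stage.

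ATML1 had more reads from the Col-0 than from the Cvi-0 allele whichever parent carried it. Its maternal share was 34.9% (31.3 to 38.6), 37.8% (33.0 to 42.9) and 42.4% (38.0 to 46.9) at the 3 stages in Cvi-0 x Col-0 embryos, and 69.9% (66.0 to 73.6), 69.5% (64.4 to 74.2) and 70.9% (64.0 to 77.1) in Col-0 x Cvi-0 embryos. Over all 6 libraries, 1761 reads were from Col-0 and 934 from Cvi-0, a Col-0 share of 65.3% (63.5 to 67.1). The log2 ratio of Col-0 to Cvi-0 was 0.96 ± 0.12 (adjusted p = 9.66e-05 in edgeR). Over all genes, 52.9% to 54.0% of the allele reads of a library were from Col-0, and the median log2 ratio of all genes tested was 0.10. ATML1 was the 1 of 5 genes that passed, where 20.5% of 6988 genes were called (13.7% with more and 6.81% with fewer Col-0 reads). By stage the ratio was 1.06 ± 0.22, 0.95 ± 0.23 and 0.85 ± 0.23, and its change between stages did not pass (adjusted p = 1).

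The call of ATML1 rested on its most-read variant. Of 12 variants, that one held 2023 reads, 68.5% of them from Col-0 (66.4 to 70.5). The next 4 variants by reads had Col-0 shares of 42.9% (36.7 to 49.3), 83.1% (76.1 to 88.8), 57.1% (48.3 to 65.7) and 53.6% (43.9 to 63.0). Their intervals did not all overlap, so variants of the same gene gave unequal shares. Without the most-read variant, a choice made after seeing the data, the Col-0 share was 56.0% (52.1 to 59.7) from 672 reads, and the log2 ratio was 0.42, which did not pass (adjusted p = 0.183 in edgeR). For PDF1 the Col-0 to Cvi-0 log2 ratio was 0.09 ± 0.19 (adjusted p = 0.801), and the Col-0 share was 42.1% (38.1 to 46.3), 51.0% (49.98 to 52.1) and 58.7% (58.1 to 59.4) at the 3 stages. The change of the Col-0 to Cvi-0 ratio between stages was called for 0 of the 5 genes and for 0.1% of all genes. Of the 5, 0 were under an unadjusted p of 0.05 in edgeR (346 of all 6988 genes were). PDF1 passed with the lower minimum of 3 allele reads (adjusted p = 0.00738 in edgeR). Fits without 1 library cannot decide this change, because parent and genotype cannot be told apart at a stage with 1 cross. WOX2, an embryo gene, had fewer Col-0 than Cvi-0 reads (1664 and 2122; log2 -0.47 ± 0.15, adjusted p = 0.0496), and that call was lost without any one of the 8-cell or 32-cell libraries (adjusted p between 0.112 and 0.19). ANL2, under the minimum for the test, had 11 Col-0 and 37 Cvi-0 reads, with a Col-0 share of 22.9% (12 to 37.3).

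**Figure D5:**
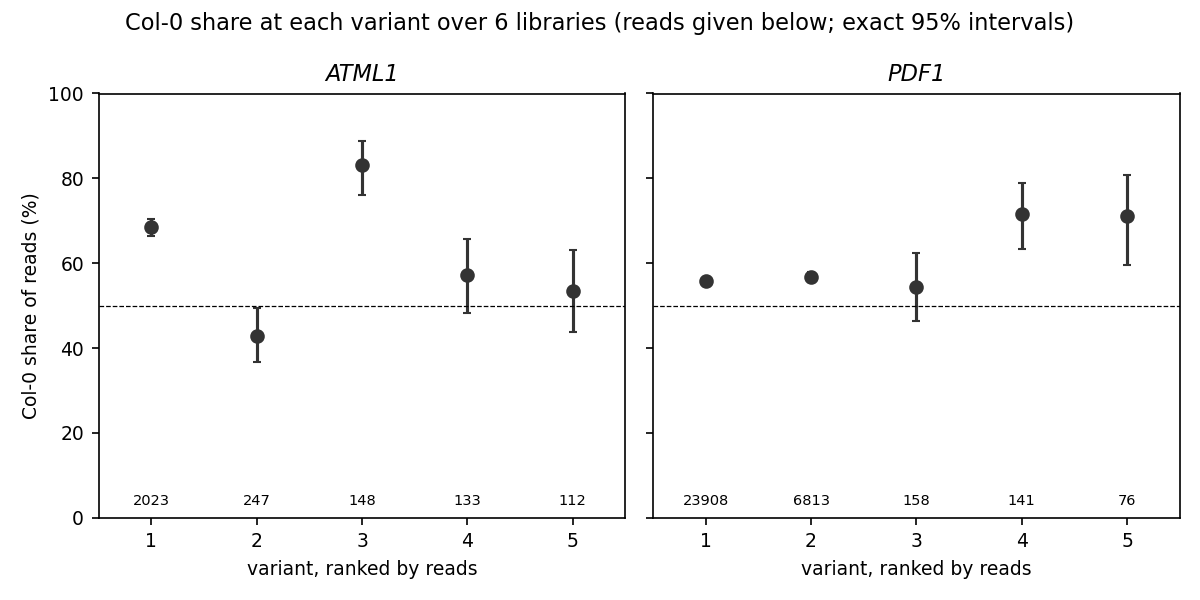
Col-0 share of reads (%) at the 5 most-read variants of ATML1 and of PDF1 over all 6 libraries, with reads printed at the base, exact 95% counting intervals as bars and 50% as a dashed line. At ATML1 the shares spread from 42.9% to 83.1%, and at the 2 most-read variants of PDF1 they are 55.9% and 56.8%.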

How the data were processed

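Alignment was done with Bowtie, per the submitters' processing notes, and its version is not given in the sources used here. Targets were, per the design text, TAIR10 (Col-0) and a copy edited to carry Cvi-0 variants, and a read was kept where it matched perfectly at 1 place. Perfect matching can lose reads of an allele with unlisted variants, and linear amplification adds noise beyond counting. The authors deposited reads per gene in steps of 0.5, treated here as estimated counts, and counts of allele reads per gene and per variant. The authors also deposited RPM, in which reads are divided by the mapped reads of the library. Entries with no value (24012; the lowest deposited value was 1) were taken as 0 reads. Another 30 columns of values were not used here.

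Gene reads were rounded, filtered with filterByExpr, scaled with TMM and fitted in edgeR 4.0.16 (R 4.3.3, limma 3.58.1) by glmQLFit and glmQLFTest with stage and cross as terms (17478 genes, 2 residual degrees of freedom, biological coefficient of variation 42.9%). Allele reads were fitted with library, genotype and parent, offset by total allele reads (6988 genes with a mean of at least 10, 2 to 4 residual degrees of freedom). With 1 library per group, p-values measure the spread left in these fits, which may be technical. The SE is the log2 ratio over the square root of F. Calls had a Benjamini-Hochberg adjusted p under 0.05. On simulated data the tests were checked, with large changes in well-read genes and less spread than in these data. That check does not give their power or error rate here. Intervals are exact 95% Clopper-Pearson. Alternatives were DESeq2 1.42.0, other scalings and filters, no cross term, each library left out, and each gene's most-read variant left out.

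The members and lists were chosen with earlier results of these data known. All 10 members are named; of other lists, each gene past the threshold in a stage or allele comparison or, with none, the most abundant. FDH, LTP1, BDG1, MUTE, FAMA, GSO1, GSO2, MEA, PHE1 and TT16 were named after their values were seen, as was the 1000-base window. Symbols and coordinates are from RefSeq, TAIR10.1 (23747 of 23874 genes matched). L1 box matches other than those printed are not reported here.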

Additional observations from a re-analysis of the deposited data

Results flagged for a closer look

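The reciprocal crosses moved in opposite directions between stages for 3 of the 10 genes. The share of all genes that did so was not counted, so this number cannot be called high or low. These differences compare 1 library with another and were not tested. ATML1 changed between the 8-cell and the 32-cell stage by 0.03 on the log2 RPM scale in Cvi-0 x Col-0 and by -0.87 in Col-0 x Cvi-0 embryos, a difference of 0.896. PDF2 changed over the same step by 0.47 and -0.32, a difference of 0.791. HDG2 changed between the 1-cell/2-cell and the 8-cell stage by 0.95 and -1.30 (difference 2.25), between the 8-cell and the 32-cell stage by 0.34 and -0.43 (difference 0.769), and between the 1-cell/2-cell and the 32-cell stage by 1.29 and -1.73 (difference 3.02), from 9 to 31 reads per library.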

How the results depend on the processing

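No paired analysis was possible because each group had 1 library, whose number pairs nothing; cross was already a term of the gene fit and library of the allele fits. DESeq2 called 1 of the 10 genes for 32-cell against 8-cell embryos (PDF1), where edgeR called 0. A minimum of 3 allele reads gave 1 gene (PDF1) for the change of the maternal share and 1 for the change of the Col-0 to Cvi-0 ratio, against 0 for both. Leaving out each member's most-read variant, an alternative added after seeing the data, gave 0 in place of 1 for parent at the 1-cell/2-cell stage and 0 in place of 1 for genotype. Leaving out 1 library gave 1 to 2 members for 8-cell and 2 to 4 for 32-cell against 1-cell/2-cell embryos, 0 to 1 for 32-cell against 8-cell embryos, 0 to 1 for parent at the 1-cell/2-cell stage, and 0 to 1 for either change between stages. With 1 library of a stage left, it was assumed to vary like the others. At such a stage parent and genotype cannot be told apart, so the allele calls of these fits decide neither. Log2 ratios that changed sign, none of them called, were HDG11 for 8-cell against 1-cell/2-cell embryos (-0.87 to 0.074 over the libraries left out, above 0 without 1-cell/2-cell Cvi-0 x Col-0), PDF2 for 32-cell against 8-cell embryos (-0.35 to 0.47, below 0 without either Cvi-0 x Col-0 library of those stages), PDF1 for parent at the 32-cell stage (-0.59 to 0.71) and PDF1 for genotype (-0.18 to 0.34), both below 0 without 32-cell Col-0 x Cvi-0, and PDF1 for genotype with TMM (-0.036). The cause was not tested. Over all genes, DESeq2 called 809 for 8-cell and 3006 for 32-cell against 1-cell/2-cell embryos (edgeR 192 and 1360), 22 for parent over all stages (9) and 3 at the 8-cell stage (7). Without a filter on low reads edgeR called 488, 312 and 2209 genes for 8-cell against 1-cell/2-cell, 32-cell against 8-cell and 32-cell against 1-cell/2-cell embryos, and 8 for cross. The minimum of 3 allele reads gave 20 genes for parent over all stages, 46, 34 and 14 at the 3 stages (10, 7 and 3), 18 for the change of the maternal share and 67 for that of the Col-0 to Cvi-0 ratio (7). Few allele reads limited HDG11, DEK1 and GL2, and the other 5 members were under the minimum of 10 allele reads.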
